A study of Mus musculus with 21 samples.

Results

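Nephron progenitors that had been pelleted into aggregates and kept for 24 h in medium with DMSO were compared with progenitors taken straight from the cell sorter. The comparison used 6 of the 21 arrays of the series, the 3 whose labels name aggregated cells in DMSO for 24 h and the 3 whose labels name freshly sorted cells, and 18161 genes were tested. Another 3 arrays, of dispersed cells cultured in DMSO for 24 h, were used to ask which changes differed between the formats of culture. All cells came from embryonic mouse kidneys at E16.5 of a mixed strain background that carried the Six2GFPcre BAC transgene, in which GFP and Cre are driven by Six2 regulatory sequence, and were sorted by that fluorescence. Cultured cells were kept in DMEM with 10% fetal bovine serum, and DMSO is the solvent that the drug-treated cells of the series received in the same volume. Each sample held 40000 cells, and RNA passed through 2 rounds of amplification before hybridisation. The labels call the arrays biological replicates but do not say which animals or litters each came from. The p-values therefore measure the spread between arrays within groups, taken over all 7 groups of the series and not only the groups compared. Aggregated DMSO arrays and fresh arrays differ in time in culture, serum, DMSO and pelleting together, and these cannot be told apart in this comparison.

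Nephron progenitors of the cap mesenchyme express Six2 and sit around the tips of the branching ureteric bud, where they either renew themselves or turn into epithelium. Wnt signals from the bud start that change, and FGF, BMP and retinoic acid signals maintain or shape the population, while Gdnf from the progenitors keeps the bud branching. When cells are taken out of a tissue and exposed to serum, actin filaments form and serum response factor and the YAP and TAZ cofactors switch on contractile and matrix genes, and dissociation also starts immediate early and stress genes.

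Values are quantile-normalised signals on a linear scale, and a log2 fold change is the DMSO aggregate mean minus the fresh mean of log2(signal + 1), with its standard error from a limma fit over all 21 arrays. A gene was called when its Benjamini-Hochberg adjusted p lay under 0.05. A signal under 41.8 was treated as below background, the level under which 95% of the signals of 27 bacterial control probe sets lay, pooled over all arrays. The 3 arrays of a group limit the precision. In DMSO aggregates 78.0 to 79.2% of genes lay above background on an array, against 76.0 to 77.7% in fresh cells. The ratio of the 3' to the 5' Gapdh control probe sets, which rises as RNA is shortened, was 13.6 to 15.4 in DMSO aggregates and 8.59 to 10.4 in fresh cells. The same ratio for beta-actin did not separate the groups, with 7.87 to 11.3 in DMSO aggregates and 7.51 to 15.1 in fresh cells. Aggregate replicate 3 and fresh replicate 1 were each the lowest of their group in the 3' beta-actin and 18S control signals.

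A day of culture as DMSO aggregates changed a large share of the transcriptome. Of 18161 genes, 5982 (32.9%) were called, 3347 of them higher (18.4%) and 2635 lower (14.5%) in DMSO aggregates than in fresh cells, and the median log2 fold change over all genes was 0.10. At least 2-fold changes were called in 1253 genes that rose (6.9%) and in 856 that fell (4.71%). The groups did not overlap in 8275 genes (45.6%). The fresh mean lay below background and the aggregate mean above it for 281 of the genes that rose. The reverse held for 181 of those that fell, and another 201 called genes lay below background in both groups. With the Gapdh ratio as a covariate 3515 genes were called, 1696 higher and 1819 lower, and how far RNA length sets the difference was not tested.

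**Figure D1:**
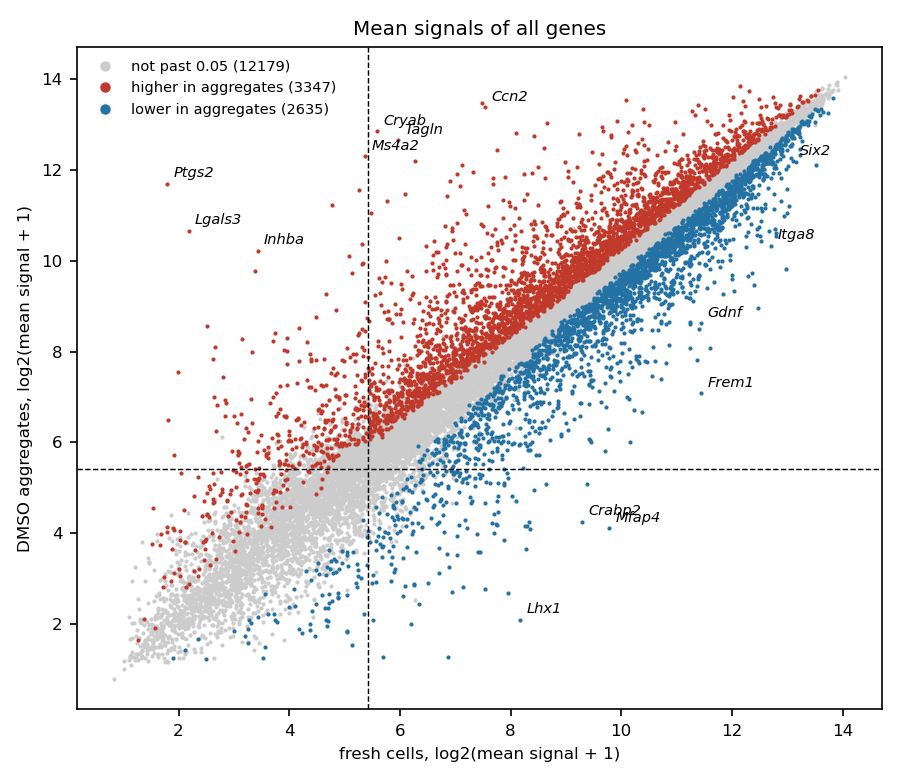
Mean signal of each of 18161 genes in DMSO aggregates (vertical axis) against fresh cells (horizontal axis), both as log2(mean signal + 1), with the background level as dashed lines. Red marks the 3347 genes called higher in DMSO aggregates and blue the 2635 called lower, and Ptgs2, Lgals3 and Inhba stand far above the diagonal with fresh levels below background while Lhx1, Crabp2 and Mfap4 lie below it.

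Most of the listed genes of the progenitor state fell, to different degrees. Six2 kept a high signal, whereas the bud-promoting ligand Gdnf, the integrin Itga8 and the Six2 partner Eya1 lost most of theirs. Of 25 measured nephron progenitor genes 17 were lower and 1 was higher in DMSO aggregates, with a median log2 fold change of -0.93, where 14.5% of all genes were lower and the median of all genes was 0.10. The summed signal of the list was 24815 to 27387 in DMSO aggregates, against 58807 to 61216 in fresh cells. In such bulk samples fewer cells of a type and less RNA per cell cannot be told apart.

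Six2, the transcription factor that holds progenitors undifferentiated, had signals of 4056, 4829.5 and 5163 in DMSO aggregates, against 9269.6, 8752 and 8565 in fresh cells. Each aggregate array lay below each fresh array, and the log2 fold change was -0.93 ± 0.12 (adjusted p 2.3e-05). Eya1, a cofactor of Six2, had signals of 1863, 2154 and 2128 in DMSO aggregates, against 7708, 8279 and 7743 in fresh cells, a log2 fold change of -1.95 ± 0.14. Gdnf, which attracts the ureteric bud through the Ret receptor, had 310.4, 364 and 518 in DMSO aggregates, against 2817, 2859 and 2662 in fresh cells, a log2 fold change of -2.84 ± 0.39. All of these groups were apart by more than the spread among their arrays. Itga8, the integrin subunit that binds nephronectin on the bud, fell by 2.38 on the log2 scale, and the transcription factors Sall1 and Uncx had log2 fold changes of -1.94 ± 0.13 and -2.10 ± 0.17. The Wnt-enhancing secreted protein Rspo1 had a log2 fold change of -2.62 ± 0.15, and the largest adjusted p among Itga8, Sall1, Uncx and Rspo1 was 6.5e-08.

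Cited1, which marks the uninduced cap, had signals of 30.9, 10.9 and 13.6 in DMSO aggregates, against 201, 114 and 116 in fresh cells, at least 3.26-fold lower in DMSO aggregates (adjusted p 1.7e-05). Fgf20, a ligand that helps to maintain progenitors, had 10.3, 21.7 and 8.21 in DMSO aggregates, against 242, 219.6 and 244 in fresh cells, at least 5.51-fold lower (adjusted p 9.0e-08). For these genes the aggregate arrays all lay below background. Osr1, an early marker of the nephrogenic lineage, was not called: its signals were 842, 429 and 217 in DMSO aggregates, against 300.3, 413 and 531 in fresh cells, and the groups overlapped. The phosphatase Eya4 was likewise not called, with 6574 ± 245 in DMSO aggregates, against 6249.8 ± 151 in fresh cells (SD, n = 3 each). Smoc2, a matricellular protein, was the 1 member that rose, with 260.1, 358 and 479 in DMSO aggregates, against 196, 73.9 and 161 in fresh cells, and it was not called with the Gapdh ratio as a covariate or in a fit of only the arrays compared.

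**Figure D2:**
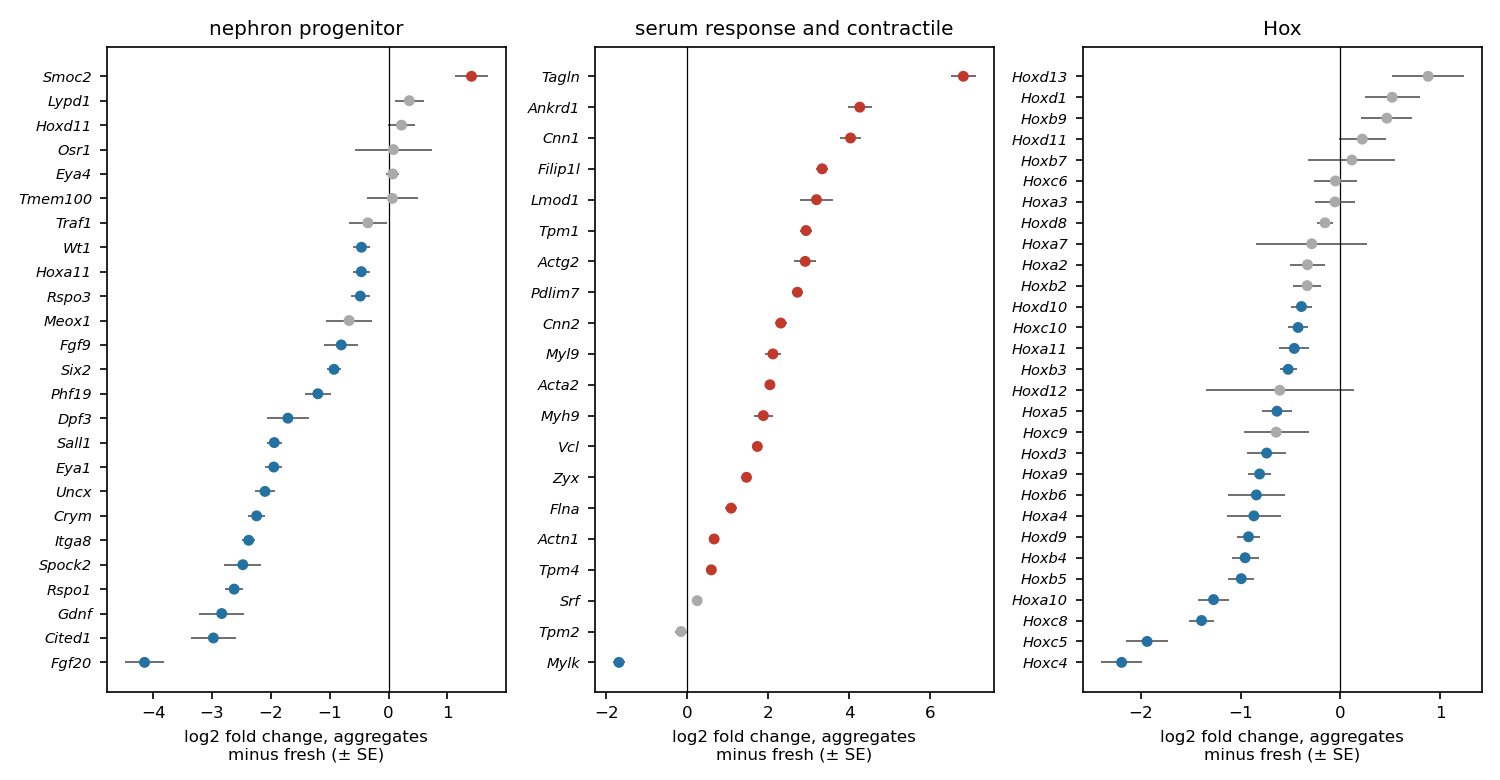
Log2 fold change of DMSO aggregates minus fresh cells with its standard error for each measured gene of the nephron progenitor, serum response and contractile, and Hox lists. Red points were called higher, blue points lower and grey points neither, so that 17 of 25 progenitor genes and 16 of 29 Hox genes are blue and 17 of 20 serum response genes are red.

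Hox genes, which set position along the body axis and are needed in paralogous groups for kidney formation, were lower or not called. Of 29 measured Hox genes 16 were lower and 0 were higher, with a median of -0.52, where 14.5% of all genes were lower. In 18 of the 29 all aggregate arrays lay below all fresh arrays, against 19.2% of all genes. Hoxc4 had signals of 489.9, 554 and 620.5 in DMSO aggregates, against 2585, 2661 and 2344 in fresh cells, and its neighbours Hoxc5 and Hoxc8 had log2 fold changes of -1.94 ± 0.21 and -1.39 ± 0.13. The groups did not overlap in any of these genes of the Hoxc cluster. Hoxa10 fell to 1624, 1847 and 1762 in DMSO aggregates, against 4754, 4565 and 3423 in fresh cells, while Hoxb9 was not called, with 784 ± 86.0 in DMSO aggregates, against 569.6 ± 86.1 in fresh cells (SD, n = 3 each). The summed signal of the 29 genes was 26662 to 27405 in DMSO aggregates and 43212 to 47433 in fresh cells.

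Both the first genes of nephron formation and general targets of canonical Wnt signalling were mostly lower in DMSO aggregates. Among 21 pretubular aggregate and renal vesicle genes 11 were lower and 3 were higher, with a median of -0.85, where 14.5% of all genes were lower and 18.4% higher. Among 18 canonical Wnt targets 10 were lower and 1 was higher, with a median of -0.70, and 6 were lower and 2 higher with the Gapdh ratio as a covariate. Wnt4, the signal that induced progenitors use to complete epithelialisation, had signals of 653, 501 and 437 in DMSO aggregates, against 1449.9, 1713 and 1876 in fresh cells (log2 fold change -1.67 ± 0.18, adjusted p 1.8e-06). Lhx1, a transcription factor of the renal vesicle, had 2.74, 3.27 and 3.80 in DMSO aggregates, against 289, 292 and 279.8 in fresh cells, at least 6.72-fold lower (adjusted p 6.6e-10). Lhx1 lay far below background in each aggregate array and above it in each fresh array. Pax8 and the chemokine receptor Cxcr4 had log2 fold changes of -1.35 ± 0.11 and -3.49 ± 0.71, of which Cxcr4 was not called with the Gapdh ratio as a covariate. The cadherin Cdh6, found in early proximal segments, went the other way, with 2757, 3460.2 and 3625 in DMSO aggregates, against 1008, 983 and 821 in fresh cells, and so did the Notch modifier Lfng, with a log2 fold change of 1.11 ± 0.16.

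Axin2, the negative feedback gene that most Wnt-responsive tissues share, had signals of 323, 356 and 375 in DMSO aggregates, against 1131, 1185 and 1111 in fresh cells, a log2 fold change of -1.70 ± 0.17. Sp5, a direct Wnt target, had 20.7, 6.19 and 48.8 in DMSO aggregates, against 296, 269 and 258 in fresh cells, at least 6.10-fold lower, and 2 of its 3 aggregate arrays lay below background. Tnfrsf19, a receptor that Wnt signalling raises, had 74.4, 90.5 and 138 in DMSO aggregates, against 1343, 1324 and 1335 in fresh cells, a log2 fold change of -3.76 ± 0.17. In each of these genes the 3 aggregate arrays lay below the 3 fresh arrays, and the largest adjusted p was 8.6e-06. Ccnd1, which encodes cyclin D1, fell by 1.74 on the log2 scale. Bmp4 was the 1 canonical Wnt target that rose, with a log2 fold change of 1.38 ± 0.17, and Myc was not called, with 2549.9 ± 77.9 in DMSO aggregates, against 1855 ± 198 in fresh cells (SD, n = 3 each).

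Of the 41 lists, those of actin cytoskeleton genes and of YAP and TAZ targets had the highest medians. Of 20 serum response and contractile genes 17 were higher and 1 was lower (median 2.08), and of 20 YAP and TAZ targets 17 were higher and 1 was lower (median 1.86), with Ankrd1 in both lists. For scale, 18.4% of all genes were higher and 14.5% lower. The summed signal of the contractile genes was 99845 to 104421 in DMSO aggregates, against 39389 to 40483 in fresh cells. Promoters of 3 contractile genes that rose are shown because serum response factor binds the CArG box. The box was searched on both strands in the 250 bases before each annotated start. It occurred in 1.47% of 32851 such RefSeq promoter windows. On the list 5 of 18 genes had a window with it, Cnn2, Filip1l, Myl9, Srf and Vcl. A gene counted when any of its windows matched, so the share of genes and the share of windows are unlike measures. A match describes the letters and does not show binding, and no window of this list held the ATF4 motif described further on. The 250 bases before the annotated start, from RefSeq on GRCm38.p6 and 5′ to 3′ on the gene's strand, follow with the box in capitals for Filip1l (chr16:57548992-57549241, plus strand), Vcl (chr14:20929148-20929397, plus strand) and Myl9 (chr2:156775214-156775463, plus strand).
Filip1l: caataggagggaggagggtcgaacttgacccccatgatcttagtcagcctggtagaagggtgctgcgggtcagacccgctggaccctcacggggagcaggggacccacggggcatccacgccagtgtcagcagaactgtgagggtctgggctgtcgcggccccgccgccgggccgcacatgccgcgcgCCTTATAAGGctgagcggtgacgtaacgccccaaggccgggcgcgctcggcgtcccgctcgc
Vcl: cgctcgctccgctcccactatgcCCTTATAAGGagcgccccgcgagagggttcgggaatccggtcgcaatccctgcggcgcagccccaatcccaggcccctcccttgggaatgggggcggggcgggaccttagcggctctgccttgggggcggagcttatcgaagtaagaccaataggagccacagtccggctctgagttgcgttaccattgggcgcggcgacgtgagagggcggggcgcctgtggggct
Myl9: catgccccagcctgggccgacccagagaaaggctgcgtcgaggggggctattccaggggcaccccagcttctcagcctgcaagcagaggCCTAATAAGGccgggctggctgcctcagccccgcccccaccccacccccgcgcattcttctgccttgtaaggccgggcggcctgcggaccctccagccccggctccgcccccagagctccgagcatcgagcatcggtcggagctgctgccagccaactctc

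Filip1l, a filamin-interacting protein with its box 62 bases before the start, had signals of 2297, 2416 and 2872 in DMSO aggregates, against 296, 223 and 234 in fresh cells (log2 fold change 3.33 ± 0.15). Vcl, which encodes the adhesion protein vinculin, had 14271, 15385 and 15098 in DMSO aggregates, against 4693, 4873 and 3971 in fresh cells (log2 fold change 1.73 ± 0.11). Myl9, the regulatory light chain of smooth muscle myosin, had 2264, 1990.4 and 2063 in DMSO aggregates, against 601, 390.1 and 485 in fresh cells (log2 fold change 2.12 ± 0.20). All aggregate arrays of these genes lay above all fresh arrays. Srf itself, which also holds a box, was not called, with 1809, 2158 and 2294 in DMSO aggregates, against 1896, 1685 and 1686 in fresh cells. The actin-binding protein Tagln, whose window held no box, rose most on the list, to 6681, 6304 and 6445 in DMSO aggregates, against 101, 39.2 and 44.8 in fresh cells (log2 fold change 6.82 ± 0.31, adjusted p 1.8e-10). The smooth muscle actin Acta2 rose by 2.04, the tropomyosin Tpm1 by 2.93 and the nonmuscle myosin Myh9 by 1.88 on the log2 scale. The myosin kinase Mylk was the 1 member that fell, with 582, 673 and 792 in DMSO aggregates, against 2137, 2237 and 2183 in fresh cells, and Tpm2 was not called, with 5245 ± 571 in DMSO aggregates, against 5833 ± 429 in fresh cells (SD, n = 3 each).

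Ccn2, the matricellular growth factor that is the usual YAP reporter, had signals of 9910.5, 11223 and 11019 in DMSO aggregates, against 219, 172 and 164 in fresh cells (log2 fold change 5.86 ± 0.11, adjusted p 1.1e-14). F3, which encodes tissue factor, the starter of coagulation, had 3631, 5018 and 5488 in DMSO aggregates, against 99.4, 53.2 and 77.8 in fresh cells (log2 fold change 5.94 ± 0.29). Ankrd1, a muscle ankyrin repeat protein, had 305, 493 and 512 in DMSO aggregates, against 19.7, 24.4 and 19.9 in fresh cells, at least 9.96-fold higher. The fresh arrays of Ankrd1 were below background, and in none of these genes did the groups overlap. Ccn1, a sister gene of Ccn2, rose by 2.65, the kinase Lats2, which restrains YAP, by 1.78, and the membrane repair protein Myof by 4.27 on the log2 scale, with a largest adjusted p of 3.1e-07. Among the largest rises of all genes, Vgll3, a TEAD cofactor, and Ccn4, a secreted relative of Ccn2, had log2 fold changes of 5.57 ± 0.29 and 5.66 ± 0.30.

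**Figure D3:**
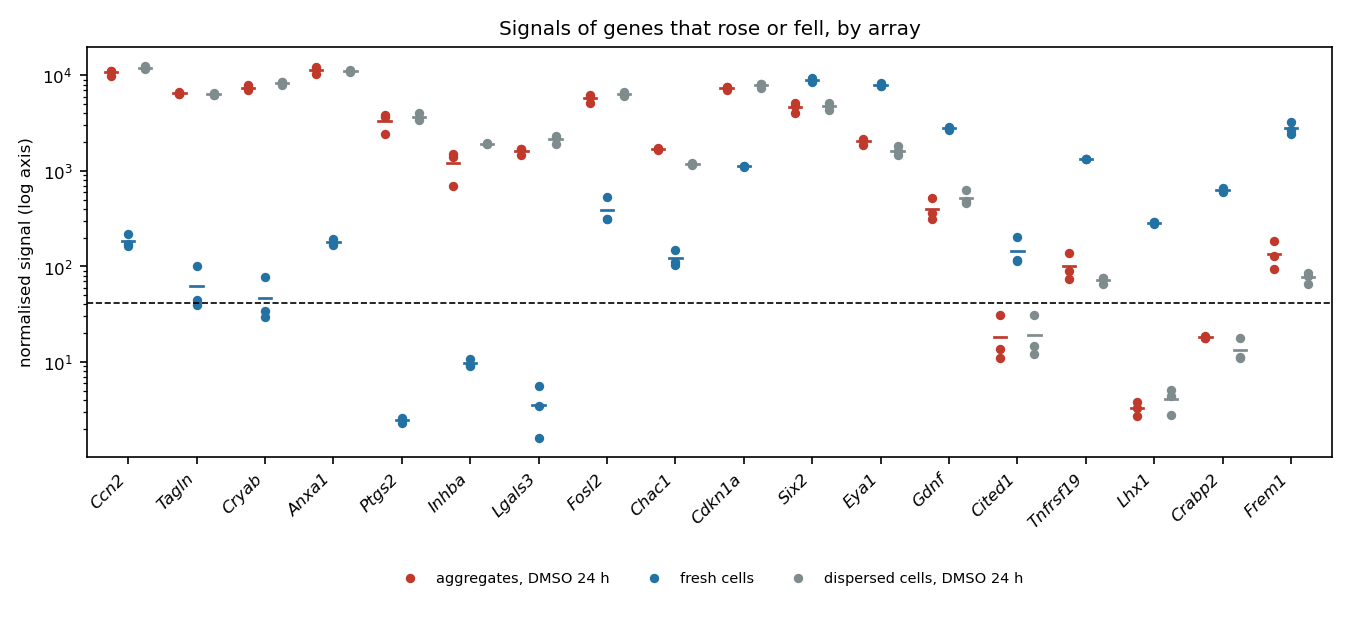
Signals on a log axis for 18 genes, with 1 point per array and a bar at the mean, for DMSO aggregates (red), fresh cells (blue) and dispersed DMSO cells (grey), and background as a dashed line. Aggregate points lie above fresh points for Ccn2 to Cdkn1a and below them for Six2 to Frem1, and none of the 18 genes was called between DMSO aggregates and dispersed cells.

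The largest log2 fold change among genes whose means lay above background in both groups was that of Cryab, a small heat shock chaperone, with signals of 7542, 6960.0 and 7879.8 in DMSO aggregates, against 77.1, 29.4 and 34.1 in fresh cells (log2 fold change 7.41 ± 0.51, adjusted p 1.5e-08). Of its fresh arrays 2 of 3 lay below background, and each aggregate array was far above them. Anxa1, a phospholipid-binding protein that dampens inflammation, had 10447, 11559.9 and 12203 in DMSO aggregates, against 192, 167 and 177 in fresh cells (log2 fold change 5.99 ± 0.20). Hbegf, a ligand of the EGF receptor, S100a6, a calcium-binding protein, and Tnfrsf12a, the receptor for TWEAK, had log2 fold changes of 5.01 ± 0.25, 4.90 ± 0.15 and 4.77 ± 0.35. Among genes whose fresh mean lay below background, the largest bound on a rise was that of Ms4a2, the beta subunit of the mast cell IgE receptor. Its signals were 4954, 4988 and 5279.6 in DMSO aggregates, against 56.3, 37.5 and 27.6 in fresh cells, at least 107-fold higher. Other mast cell genes did not follow as a group: Fcer1a, the alpha subunit of the same receptor, had 54.0, 10.9 and 6.56 in DMSO aggregates, against 9.60, 10.8 and 13.7 in fresh cells, and the protease gene Cpa3 had 35.4, 66.7 and 34.2 in DMSO aggregates, against 154, 109 and 58.0 in fresh cells, and neither was called. The receptor gene Kit rose by 1.56 on the log2 scale. Of 9 mast cell genes 3 were higher and 1 was lower (0 lower with the Gapdh ratio as a covariate), against 18.4% and 14.5% of all genes. Summed, they reached 6768 to 7260 in DMSO aggregates, of which Ms4a2 made up most, and 1002 to 1634 in fresh cells.

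Other genes rose from below background. Lgals3, which encodes galectin-3, had signals of 1703, 1477 and 1706 in DMSO aggregates, against 3.42, 5.58 and 1.60 in fresh cells, at least 38.0-fold higher. Rgcc, a regulator of the cell cycle, was at least 67.4-fold, the potassium channel Kcna1 at least 56.2-fold and the hyaluronan-binding protein Cemip at least 20.9-fold higher in DMSO aggregates. Fgf5, a growth factor ligand, had 882 ± 238 in DMSO aggregates, against 9.41 ± 5.74 in fresh cells (SD, n = 3 each), at least 20.0-fold higher. All fresh arrays of Lgals3 and Fgf5 lay far below background. The largest adjusted p among these genes was 1.7e-06.

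Genes with the largest falls included matrix, adhesion and antigen-presenting genes. Frem1, a basement membrane protein of the Fraser complex, had signals of 93.5, 129 and 185 in DMSO aggregates, against 2704, 3212 and 2456 in fresh cells (log2 fold change -4.40 ± 0.25, adjusted p 1.5e-09). Mfap4, a glycoprotein of elastic microfibrils, had 16.1, 15.0 and 18.1 in DMSO aggregates, against 1080.4, 837 and 714 in fresh cells, at least 20.2-fold lower. Crabp2, which carries retinoic acid to its nuclear receptor, had 18.1 ± 0.42 in DMSO aggregates, against 629 ± 32.7 in fresh cells (SD, n = 3 each), at least 14.7-fold lower. The aggregate arrays of Mfap4 and Crabp2 were all below background. The laminin chain Lama4, the Slit receptor Robo2 and the atypical cadherin Fat3 had log2 fold changes of -4.02 ± 0.42, -3.95 ± 0.38 and -3.57 ± 0.30, and Hsd11b2, which inactivates glucocorticoids, had one of -3.56 ± 0.15. The MHC class II chains H2-Aa and H2-Ab1 fell too, H2-Aa with a log2 fold change of -3.36 ± 0.57 and H2-Ab1 by at least 7.44-fold.

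Among 25 immediate early genes 15 were higher and 2 were lower (median 0.88), against 18.4% and 14.5% of all genes, and the members differed by family. Fos and Egr1, which dissociation is known to induce, were bright in all 6 arrays and were not called: Fos had 6997, 6754 and 6210.3 in DMSO aggregates, against 8023, 8205 and 8068 in fresh cells, and Egr1 had 8705, 9744 and 10121 in DMSO aggregates, against 10701, 11111 and 10909 in fresh cells. For both, the aggregate arrays nevertheless all lay below the fresh arrays. Fosb, by contrast, fell to 115, 196 and 186 in DMSO aggregates, against 655, 832 and 621 in fresh cells (log2 fold change -2.11 ± 0.22). The AP-1 members that accumulate later were higher, Fosl2 with 5173, 5921 and 6241 in DMSO aggregates, against 539, 311 and 317 in fresh cells (log2 fold change 3.93 ± 0.19). So the Fos family split, with Fosl1 higher by 2.64 on the log2 scale and Fosb lower. The stress factor Atf3, the early response gene Ier3 and the zinc finger factor Klf6 had log2 fold changes of 3.88 ± 0.22, 4.15 ± 0.26 and 2.88 ± 0.16, with a largest adjusted p of 1.7e-06. Ier2 was the other member that fell, with a log2 fold change of -0.68 ± 0.11.

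Stress programmes of amino acid supply and of p53 were higher, and the classical heat shock genes mostly were not called. Of 20 ATF4 and unfolded protein response genes 16 were higher and 0 lower (median 0.74), and of 16 p53 targets 14 were higher and 1 lower (median 1.44). The shares over all genes were 18.4% higher and 14.5% lower. Asns and Chac1 are shown with their promoters because ATF4, joined to a C/EBP partner, binds TGATGNAA. This motif, searched on both strands in the same 250 bases, lay in 3.45% of the 32851 windows. On the list 5 of 19 genes had it in any of their windows, Asns, Chac1, Herpud1, Slc7a11 and Vldlr, a share of genes and not of windows. The 250 bases before the start, from RefSeq on GRCm38.p6 and 5′ to 3′ on the gene's strand with the match in capitals, follow for Chac1 (chr2:119350992-119351241, plus strand), where it lies on the other strand, and for Asns (chr6:7693210-7693459, minus strand).
Chac1: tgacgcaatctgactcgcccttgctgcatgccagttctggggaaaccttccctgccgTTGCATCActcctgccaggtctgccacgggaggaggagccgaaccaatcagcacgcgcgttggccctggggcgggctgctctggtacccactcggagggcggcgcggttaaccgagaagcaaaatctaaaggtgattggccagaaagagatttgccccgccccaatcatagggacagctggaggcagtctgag
Asns: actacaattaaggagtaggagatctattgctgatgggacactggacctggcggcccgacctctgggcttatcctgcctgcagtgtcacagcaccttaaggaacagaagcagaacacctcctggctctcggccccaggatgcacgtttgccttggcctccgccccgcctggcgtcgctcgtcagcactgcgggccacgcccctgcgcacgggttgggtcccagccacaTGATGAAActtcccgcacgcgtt

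Chac1, an enzyme that breaks down glutathione, had signals of 1702, 1718 and 1656 in DMSO aggregates, against 150.3, 110.4 and 104 in fresh cells (log2 fold change 3.81 ± 0.20, adjusted p 8.0e-10). Asns, which makes asparagine, had 6043, 5952 and 5777 in DMSO aggregates, against 1108, 1127 and 1041 in fresh cells (log2 fold change 2.44 ± 0.12). Trib3, a pseudokinase that ATF4 induces, and Cebpb, a partner of ATF4, had log2 fold changes of 1.51 ± 0.13 and 3.18 ± 0.20. In each of these 4 genes the groups did not overlap. Members with the motif were not all higher: Herpud1 had 618 ± 80.5 in DMSO aggregates, against 481 ± 71.1 in fresh cells and Vldlr had 585 ± 136 in DMSO aggregates, against 555 ± 60.8 in fresh cells (SD, n = 3 each), and neither was called. The endoplasmic reticulum chaperone gene Hspa5 was not called either, with a log2 fold change of 0.10 ± 0.08. The small heat shock genes Hspb1 and Hspb8 rose by 3.21 and 3.86 on the log2 scale, and 5 of 17 chaperone genes were higher in all, against 18.4% of all genes.

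Cdkn1a, which encodes the p21 inhibitor of cyclin-dependent kinases, had signals of 7504, 7076 and 7497 in DMSO aggregates, against 1099, 1133 and 1124 in fresh cells (log2 fold change 2.72 ± 0.11, adjusted p 7.2e-11). Pmaip1, the death-promoting protein Noxa, had 216, 359 and 321 in DMSO aggregates, against 21.2, 9.27 and 5.62 in fresh cells, at least 6.84-fold higher. Eda2r and Perp, a death receptor and a desmosomal protein, rose by 3.04 and 3.07, and Ccng1, which encodes cyclin G1, rose by 1.60 on the log2 scale. These genes were higher in all aggregate arrays than in any fresh array. The growth restraint gene Sesn1 was the 1 target that fell, with a log2 fold change of -1.25 ± 0.16. Of 14 NRF2 and metallothionein genes 7 were higher and 1 was lower, against 18.4% and 14.5% of all genes. Among them Srxn1, which repairs oxidised peroxiredoxin, had 712, 764 and 647 in DMSO aggregates, against 129, 95.4 and 132 in fresh cells.

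Cell cycle genes that were called were lower with 1 exception, and inhibitors were called in both directions. Of 21 G1/S and replication genes 7 were lower and 1 was higher (median -0.14), and of 21 G2/M genes 7 were lower and 0 higher (median -0.26). Over all genes 14.5% were lower and 18.4% higher. Uhrf1, which keeps DNA methylation through replication, had signals of 3022, 2698 and 2777 in DMSO aggregates, against 5251, 5109.6 and 5413 in fresh cells (log2 fold change -0.89 ± 0.10). Cenpf, a kinetochore protein, had 2622, 2807 and 2811 in DMSO aggregates, against 5308, 5310.3 and 4938 in fresh cells (log2 fold change -0.92 ± 0.16). Plk1 and Cenpa fell by 0.93 and 0.81 on the log2 scale, while Ccne2, which encodes cyclin E2, was the 1 replication gene that rose, by 0.75. The replication clamp gene Pcna was not called, with a log2 fold change of -0.06 ± 0.07. Of 14 inhibitor genes 6 were higher and 3 were lower, and 3 were higher and 0 lower with the Gapdh ratio as a covariate. The inhibitor gene Cdkn2b had 130.4, 154 and 167 in DMSO aggregates, against 17.3, 9.08 and 13.5 in fresh cells, at least 3.52-fold higher.

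Matrix and adhesion genes changed in both directions, with Col1a2 and Vcan lower and Fn1 and Thbs1 higher. The scale for the counts is 18.4% of all genes higher and 14.5% lower. Of 26 collagen and matrix genes 11 were higher and 7 lower, of 26 integrin and laminin genes 15 were higher and 6 lower (9 and 4 with the Gapdh ratio as a covariate), and of 21 proteases and inhibitors 12 were higher and 2 lower (1 lower with that covariate). Fn1, which encodes fibronectin, had signals of 9282, 10421 and 10439.5 in DMSO aggregates, against 2723, 2539 and 2240.3 in fresh cells (log2 fold change 2.01 ± 0.10). Thbs1, which encodes thrombospondin-1, had 1227, 1557 and 2048 in DMSO aggregates, against 144, 104 and 119.6 in fresh cells (log2 fold change 3.69 ± 0.22). Col12a1, a fibril-associated collagen, had a log2 fold change of 3.68 ± 0.24, and the matrix cross-linker Lox one of 2.21 ± 0.22. Against these rises, the fibrillar collagen Col1a2 had 1500.2, 1056 and 805 in DMSO aggregates, against 3793, 3949 and 4292 in fresh cells (log2 fold change -1.88 ± 0.20), and the proteoglycan Vcan had a log2 fold change of -1.39 ± 0.07. Integrins diverged, since Itga8 fell while Itgb8 rose to 667, 962 and 783 in DMSO aggregates, against 60.5, 57.5 and 37.7 in fresh cells, and Itga3 rose by 2.22 on the log2 scale. The protease Adamts5 and the inhibitor Timp1 had log2 fold changes of 3.56 ± 0.19 and 3.10 ± 0.22, and the protease Adamts9 one of -1.92 ± 0.10.

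Some mesenchymal genes and some junction genes were higher in DMSO aggregates, where 18.4% of all genes were higher and 14.5% lower. Of 14 genes of mesenchymal transition 6 were higher and 1 lower (median 0.62), and of 26 epithelial junction and keratin genes 9 were higher and 2 lower (5 and 1 with the Gapdh ratio as a covariate). Vim, the intermediate filament vimentin, had signals of 13491, 13923 and 14085 in DMSO aggregates, against 5306, 5018 and 4829.5 in fresh cells (log2 fold change 1.45 ± 0.13), and the transcription factor Prrx1 had a log2 fold change of 2.32 ± 0.15. Pkp2, a plaque protein of desmosomes, had 6949.9, 6879 and 7559 in DMSO aggregates, against 675, 592 and 533 in fresh cells (log2 fold change 3.57 ± 0.13). The tight junction gene Cldn1 rose by 3.64, the desmosomal gene Dsp by 2.10 and the keratin Krt19 by 3.76 on the log2 scale. E-cadherin (Cdh1), the classical mark of tubule epithelium, was not called, with 81.4, 134 and 165 in DMSO aggregates, against 281, 102 and 91.4 in fresh cells, and its groups overlapped.

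Ligands and their feedback genes changed pathway by pathway. Of 19 TGF-beta and activin genes 10 were higher and 0 lower (median 0.56), where 18.4% of all genes were higher and 14.5% lower. Inhba, the subunit of activin A, had signals of 1503, 1398 and 699 in DMSO aggregates, against 9.41, 9.19 and 10.8 in fresh cells, at least 26.6-fold higher. Fst, which encodes the activin trap follistatin, had a log2 fold change of 2.64 ± 0.14, and Tgfb2 one of 2.02 ± 0.26. In the BMP list 8 of 19 genes were higher and 4 lower. Bmp7, which progenitors need to survive, had 742, 733 and 844 in DMSO aggregates, against 4521, 3839.9 and 3891 in fresh cells (log2 fold change -2.40 ± 0.13), while Bmp6 had 431, 389 and 456 in DMSO aggregates, against 46.6, 43.7 and 34.2 in fresh cells, at least 9.45-fold higher. The ligands of this family thus moved in opposite directions, and the target genes Id1 and Smad6 rose by 1.67 and 1.09 on the log2 scale. For FGF, 6 of 18 genes were higher and 5 lower (3 higher with the Gapdh ratio as a covariate): the receptors Fgfr1 and Fgfr2 had log2 fold changes of -1.43 ± 0.13 and -1.59 ± 0.10, and the feedback phosphatase Dusp5 one of 1.93 ± 0.24.

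Over all genes 18.4% were higher and 14.5% lower, and the counts for the retinoic acid and Notch lists lay near those shares. Of 15 retinoic acid genes 3 were higher and 3 lower. Aldh1a2, which makes retinoic acid, had 2212, 2203 and 2334 in DMSO aggregates, against 7171, 6634 and 7060.2 in fresh cells. Of 13 insulin-like growth factor genes 5 were higher and 3 lower, and the binding proteins diverged: Igfbp3 rose by 2.71 and Igfbp7 by 2.33, both on the log2 scale, whereas Igfbp5 fell to 5109.6, 4501 and 4255 in DMSO aggregates, against 9614, 9114 and 8853 in fresh cells. Of 16 Notch genes 2 were higher (1 with the Gapdh ratio as a covariate) and 3 lower, among them the effector Heyl, with 159, 178 and 181 in DMSO aggregates, against 901, 958 and 850.4 in fresh cells. The Notch ligand Jag1 was not called, with 1439, 2300.4 and 3110.4 in DMSO aggregates, against 1864, 1473 and 1299 in fresh cells, and its groups overlapped.

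Among prostaglandin genes, synthesis and breakdown enzymes were higher in DMSO aggregates. As a scale for the list counts, 18.4% of all genes were higher and 14.5% lower. Ptgs2, which encodes the inducible cyclooxygenase of prostaglandin synthesis, had signals of 2438, 3887 and 3695 in DMSO aggregates, against 2.32, 2.47 and 2.61 in fresh cells, at least 76.4-fold higher (adjusted p 1.2e-12). Hpgd, the enzyme that breaks prostaglandin E2 down, also rose, with 6801, 7391 and 6549 in DMSO aggregates, against 408, 301 and 321 in fresh cells (log2 fold change 4.34 ± 0.22). Also higher were the phospholipase Pla2g4a, by 1.68, and the receptor Ptger4, by 2.59 on the log2 scale. In all 7 of 13 prostaglandin genes were higher and 1 was lower (2 with the Gapdh ratio as a covariate), the prostacyclin synthase Ptgis, with a log2 fold change of -1.52 ± 0.22. Of 22 chemokine and inflammation genes 10 were higher and 2 lower (1 lower with that covariate), with a median of 1.08, or 0.40 when signals below background were raised to it. Cxcl12, the ligand of Cxcr4, had 8279, 8387 and 8039.9 in DMSO aggregates, against 1265, 1178 and 1082 in fresh cells, and Csf1, the macrophage growth factor, had a log2 fold change of 3.03 ± 0.14. The ligand and its receptor moved apart, since Cxcr4 had fallen. Il33, a nuclear cytokine, was lower, with 789.9, 761 and 768 in DMSO aggregates, against 2501, 2397 and 2675 in fresh cells.

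Of 26 glycolysis and hypoxia genes 7 were higher and 9 lower (median -0.05), against 18.4% and 14.5% of all genes. The glucose transporter Slc2a1 was up by 1.01 and the platelet phosphofructokinase Pfkp by 1.97 on the log2 scale. The liver-type phosphofructokinase Pfkl went the other way, with 295, 324 and 455 in DMSO aggregates, against 1766, 1549 and 1529 in fresh cells. So did the pyruvate dehydrogenase kinase Pdk1, with a log2 fold change of -1.62 ± 0.15. Of 26 oxidative phosphorylation subunits 3 were higher and 3 lower (median 0.02), a smaller share than the 32.9% called over all genes, and 1 was lower with the Gapdh ratio as a covariate. Of 32 sterol and fatty acid synthesis genes 11 were higher and 3 lower, but 4 were higher with the Gapdh ratio as a covariate or in a fit of only the arrays compared. The elongase Elovl6 and the cholesterol exporter Abca1 had log2 fold changes of -1.11 ± 0.09 and -1.39 ± 0.23, of which Abca1 was not called with the mean of all its probe sets. Of 10 interferon genes 2 were higher (1 with the Gapdh ratio as a covariate) and 1 lower, near the shares over all genes. Their median was 0.72, or 0.37 when signals below background were raised to it. Of 14 Myc and self-renewal genes 0 were higher and 4 lower (1 lower with the Gapdh ratio as a covariate).

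Markers of the other cells of the kidney gave no single pattern, and their part in the changes above was not tested. The shares over all genes, for scale, were 18.4% higher and 14.5% lower. Of 19 interstitial stroma genes 4 were higher (2 with the Gapdh ratio as a covariate) and 8 lower: Foxd1, which defines the stromal progenitor, had signals of 5060.3, 4510.4 and 4635 in DMSO aggregates, against 2084, 2097 and 2126 in fresh cells (log2 fold change 1.17 ± 0.15), while Penk had a log2 fold change of -2.62 ± 0.33 and Tcf21 one of -1.62 ± 0.13. The stromal list summed to 39110 to 40090 in DMSO aggregates, against 43695 to 45331 in fresh cells. Of 14 endothelial genes 1 was higher (0 with the Gapdh ratio as a covariate) and 4 lower, and Plvap, a protein of fenestrated vessels, had 22.8, 14.6 and 7.77 in DMSO aggregates, against 261, 152 and 205 in fresh cells, at least 4.72-fold lower. The endothelial sum was 1296 to 1588 in DMSO aggregates and 3824 to 4490 in fresh cells, where Ramp2 made up most of the fresh sum, and Tie1 lay below background on average in both. Pecam1 was not called, with 45.7, 71.0 and 56.8 in DMSO aggregates, against 59.4, 19.3 and 17.1 in fresh cells, and Kdr was not called, with 156, 200.4 and 215 in DMSO aggregates, against 209, 201 and 211 in fresh cells.

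Of 14 leukocyte genes 1 was higher and 0 lower, and the pan-leukocyte gene Ptprc was not called, with 6.12, 64.2 and 64.5 in DMSO aggregates, against 95.7, 49.4 and 55.2 in fresh cells. The leukocyte sum was 2036 to 2470 in DMSO aggregates and 1911 to 2423 in fresh cells. Of 8 erythroid genes 2 were lower (1 with the Gapdh ratio as a covariate), among them the haem synthesis gene Alas2, with 16.2, 6.42 and 10.3 in DMSO aggregates, against 166, 166 and 190.1 in fresh cells, at least 4.08-fold lower. The erythroid sum was 395 to 417 in DMSO aggregates and 531 to 671 in fresh cells, with Hba-a1 below background on average in both. Of 10 podocyte genes 3 were higher and 5 lower (1 lower with the Gapdh ratio as a covariate), of 15 ureteric bud genes 4 were higher (2 with that covariate) and 3 lower, of 12 proximal tubule genes 0 were higher (1 with that covariate) and 1 lower, and of 13 loop and distal genes 0 were higher and 4 lower. In the lists of all kinds with 0 genes called in a direction, at most 2 genes reached an unadjusted limma p under 0.05 in it. The podocyte sum was 8723 to 9537 in DMSO aggregates and 7607 to 9334 in fresh cells, and the ureteric bud sum was 7865 to 8741 in DMSO aggregates and 7793 to 8767 in fresh cells. The loop and distal sum was 1277 to 1396 in DMSO aggregates and 3507 to 4333 in fresh cells, with the distal salt transporter Slc12a3 below background on average in both, and the proximal sum was 860 to 1091 in DMSO aggregates and 875 to 1434 in fresh cells.

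**Figure D4:**
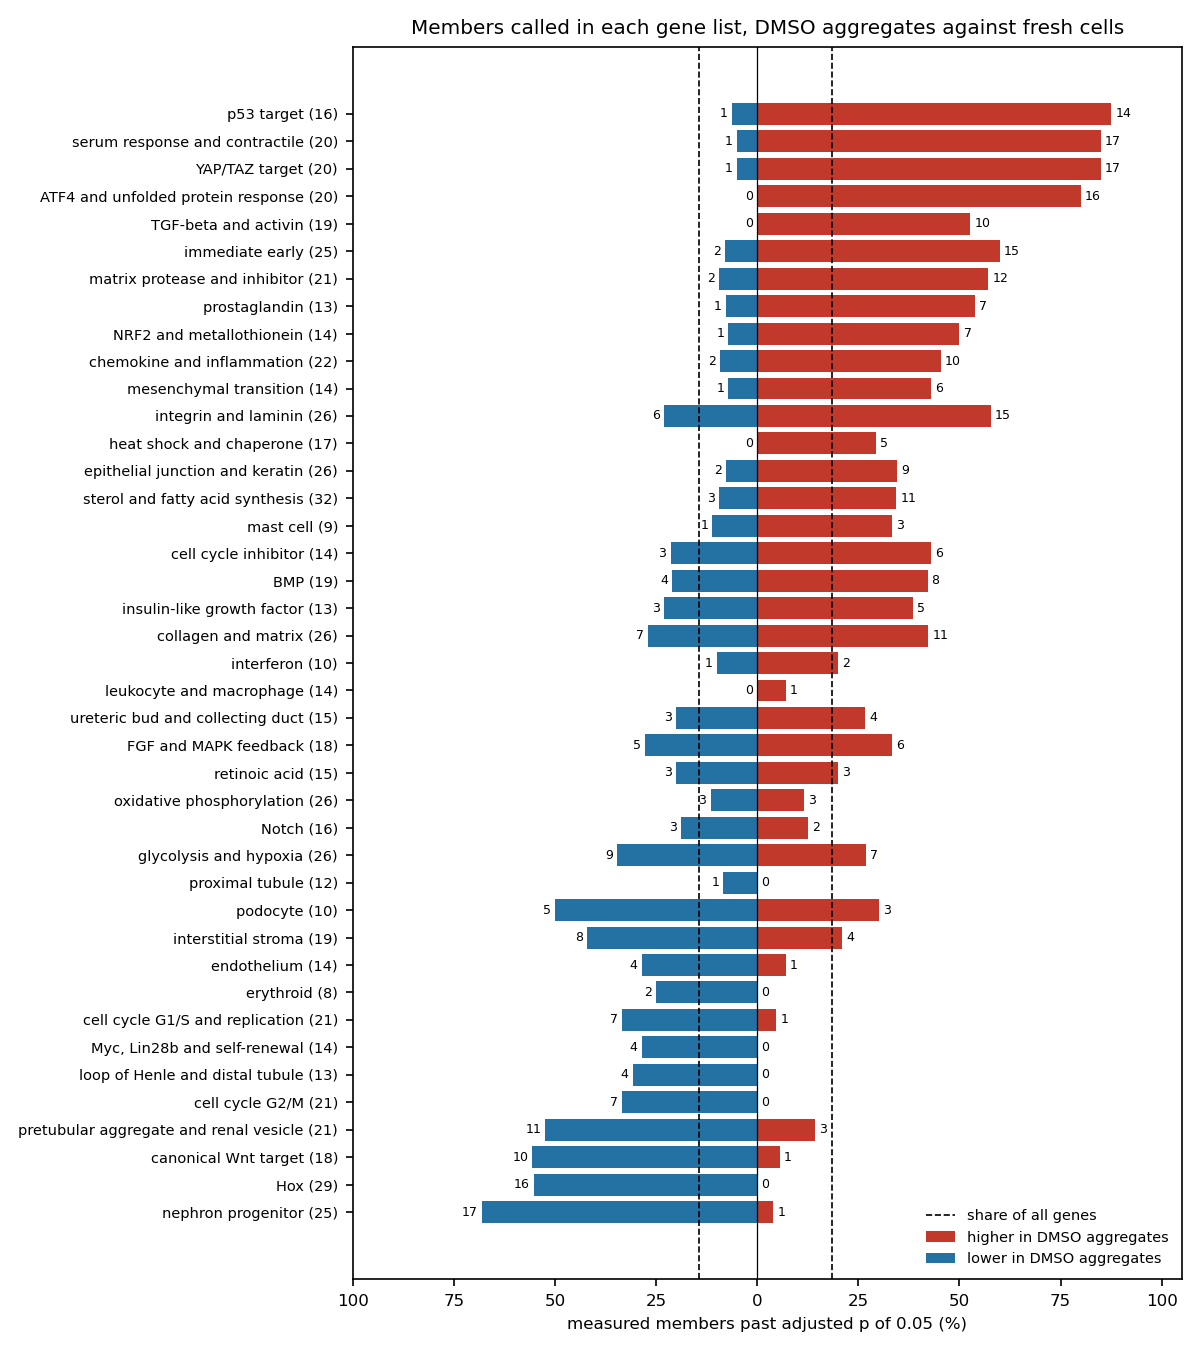
Share of the measured members of each of 41 gene lists (number measured in brackets) called higher (red, to the right) or lower (blue, to the left) in DMSO aggregates than in fresh cells, with the number of genes at the end of each bar. The dashed lines mark the shares over all genes, 18.4% higher and 14.5% lower. The p53, serum response, YAP/TAZ and ATF4 lists lie at the top while the Hox and nephron progenitor lists lie at the bottom.

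DMSO aggregates were set directly against dispersed cells kept for the same 24 h in DMSO, to see which levels depended on the format. Far fewer genes differed than against fresh cells: 476 (2.62%) were called, 334 higher (1.84%) and 142 lower (0.782%) in DMSO aggregates, around a median of 0.11. In a fit of only these 6 arrays 6 genes were called. When any 1 of the 6 was left out of the main fit over the whole series, 138 to 312 genes were called. With the deposited scaling the split turned, with 106 higher and 165 lower. The 3' to 5' Gapdh ratio was 13.6 to 15.4 in DMSO aggregates and 11.6 to 12.4 in dispersed cells. How far RNA length sets this difference was not tested. None of the 20 contractile genes, 20 YAP and TAZ targets, 16 p53 targets or 29 Hox genes was called against dispersed cells by limma. An unadjusted p under 0.05 was reached by 0, 1, 2 and 5 of them in that order of lists, and by 3318 of 18161 genes. In DMSO aggregates Ccn2 had 9910.5, 11223 and 11019, against 11857, 11608 and 12639.7 in dispersed cells, and Six2 had 4056, 4829.5 and 5163, against 5171, 4365 and 4756 in dispersed cells.

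Some genes that were lower than in fresh cells were less low in aggregates than in dispersed cells. Of 18161 genes 110 (0.606%) were lower than fresh and higher than dispersed cells by both tests. Crym, a thyroid hormone binding protein and the 1 gene called among the 25 of the progenitor list, had signals of 1673, 1559.7 and 1289.8 in DMSO aggregates and 678, 710.3 and 763 in dispersed cells, against 7236, 6594 and 7491 in fresh cells. Aggregates lay between the other groups without overlap, with a log2 difference from dispersed cells of 1.06 ± 0.15 (adjusted p 0.0024). Aldh1a2 had 2212, 2203 and 2334 in DMSO aggregates and 1663, 1666 and 1424 in dispersed cells, a log2 difference of 0.51 ± 0.08, and Il33 had 789.9, 761 and 768 in DMSO aggregates and 453, 382 and 401 in dispersed cells, a log2 difference of 0.91 ± 0.14. Cd83, an immunoglobulin superfamily protein, and Minar2 showed the same order and were chosen after their values were seen. Cd83 had 638, 709.8 and 676 in DMSO aggregates and 248, 265 and 241 in dispersed cells, against 1824, 1663 and 1869 in fresh cells (log2 difference 1.42 ± 0.07), and Minar2 had a log2 difference of 1.20 ± 0.10 (largest adjusted p 2.5e-05). Of the genes named for this comparison Cd83 was the 1 still called in the fit of only these arrays.

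Another 72 genes (0.396%) were higher in DMSO aggregates than in both other groups. Dhrs3, a retinaldehyde reductase that retinoic acid induces, had signals of 4226, 3105 and 2625 in DMSO aggregates and 1487, 1720.2 and 1435 in dispersed cells, against 1156, 1204 and 1192 in fresh cells (log2 difference from dispersed cells 1.08 ± 0.17, adjusted p 0.0042). The small GTPase Rab38 and the glycine receptor subunit Glrb had log2 differences of 0.97 ± 0.15 and 1.22 ± 0.21. Tfpi2, a protease inhibitor, had 119, 100.1 and 67.2 in DMSO aggregates, against 35.0, 10.8 and 24.1 in dispersed cells, at least 2.19-fold higher than in dispersed cells (adjusted p 0.0093). In each of these genes the 3 aggregate arrays lay above the 3 dispersed arrays, which the rule that picked them required.

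A similar number, 75 genes (0.413%), were lower in DMSO aggregates than in both other groups. Mss51, whose protein is found in muscle mitochondria, had signals of 33.6, 69.0 and 52.9 in DMSO aggregates and 297, 245 and 225 in dispersed cells, against 275, 469.5 and 309 in fresh cells (log2 difference from dispersed cells -2.33 ± 0.27, adjusted p 7.3e-04). The histone gene H3f3b and the chaperone partner Hypk had log2 differences of -1.74 ± 0.29 and -1.53 ± 0.24. Itga5, the fibronectin receptor subunit, had 55.0, 37.4 and 26.0 in DMSO aggregates and 187, 159 and 222 in dispersed cells, against 145, 144 and 84.9 in fresh cells. The arrays of the cultured groups thus lay on opposite sides of the fresh ones, though dispersed against fresh cells was not tested. The adjusted p of Itga5 in aggregates against dispersed cells was 0.0087, and neither Itga5 nor Klf4 was called there with the mean of their probe sets. Against fresh cells Itga5 and H3f3b were not called with the Gapdh ratio as a covariate, nor was Itga5 with the mean of its probe sets or without both aggregate replicate 3 and fresh replicate 1. Hspa1a, an inducible heat shock chaperone, had 1074, 1216 and 1346 in DMSO aggregates and 2505, 2861 and 2272 in dispersed cells, against 1529, 1606 and 1547 in fresh cells, a log2 difference from dispersed cells of -1.07 ± 0.17 (adjusted p 0.0043), and it was not called against fresh cells. A further 26 genes (0.143%) were higher than fresh and lower than dispersed cells, Klf4 among them, with 1277, 1541 and 2068 in DMSO aggregates and 3053, 3059.7 and 3539.5 in dispersed cells, against 784, 832 and 859 in fresh cells (log2 difference from dispersed cells -1.01 ± 0.17).

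**Figure D5:**
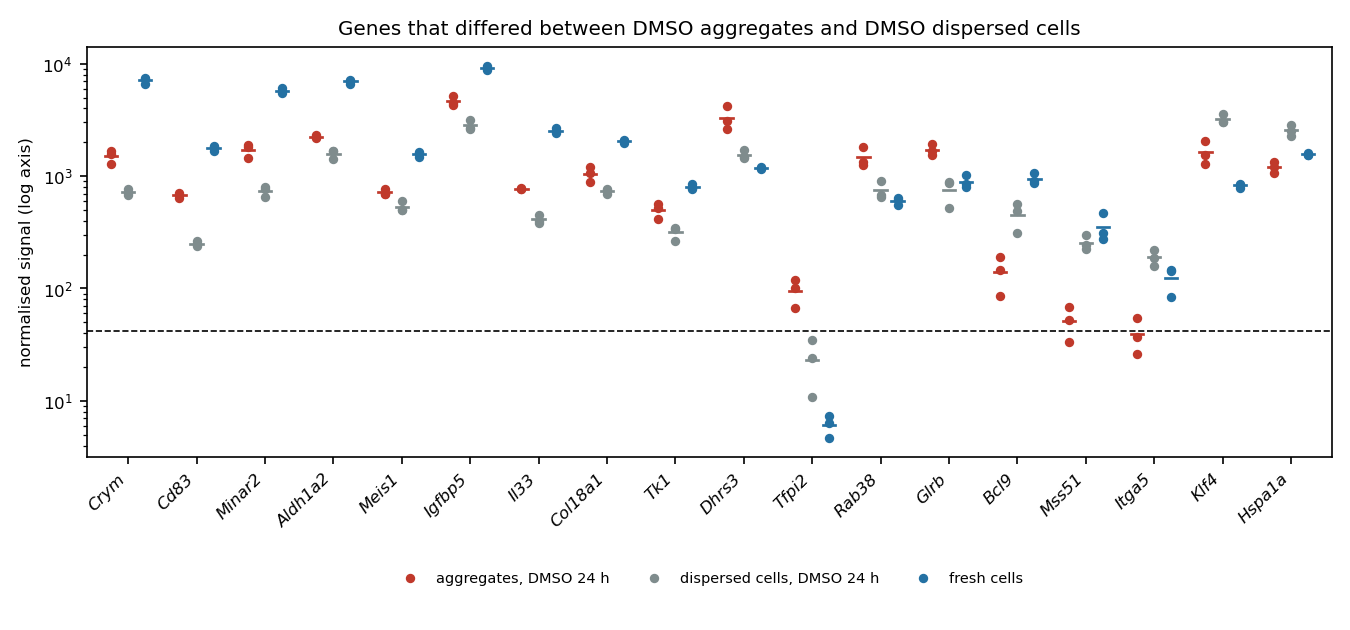
Signals on a log axis for 18 genes that differed between DMSO aggregates (red) and dispersed DMSO cells (grey), with fresh cells in blue, 1 point per array, a bar at the mean and background as a dashed line. From Crym to Tk1 the red points lie between blue and grey, from Dhrs3 to Glrb they lie above both, from Bcl9 to Itga5 below both, Klf4 lies between, and Hspa1a lies lowest in DMSO aggregates.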

How the data were processed

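The deposited values are linear intensity signals of 45101 probe sets on 21 single-colour arrays, 3 in each of 7 groups, and how the authors scaled and summarised them is not given in the sources used here. Per the labels' protocols, total RNA was amplified in 2 rounds and labelled with biotin. Signals were normalised between arrays by quantiles and taken as log2(signal + 1). The platform annotation with RefSeq names gave 34945 probe sets 1 gene, 932 several and 9160 none, and the probe set with the highest mean stood for each of 18161 genes. limma 3.58.1 in R 4.3.3 fitted the 7 group means over all 21 arrays (14 residual degrees of freedom), with Benjamini-Hochberg adjustment and a threshold of 0.05; the fit was tested on simulated data. Where a group mean lay below 41.8 its arrays were raised to that level and the fold is given as a bound.

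Genes named are members of 41 lists, the 12 largest rises and falls with both means above background, the 10 brightest each way with 1 mean below it, and the 8 each way with the largest change against both other groups, among genes past the threshold without overlap; members and lists were chosen with earlier results of these data known. Of the called genes, 3595 have another probe set. In 1676 of them another passed the threshold in the same direction, and in 265 another passed in the opposite direction. Anxa1, Inhba, Fgf5, Cemip, Lama4 and H2-Ab1 had another probe set but none that passed, whereas for Cryab, Ms4a2 and Ptgs2 another passed the same way. No 2 arrays shared more than 0.288% of their values. The labels do not say whether the replicate numbers pair the arrays, and the main fit used no pairing. Alternatives covered scaling, the pseudocount (16), dim genes, probe sets, the arrays fitted, array weights, the variance prior, control covariates, the replicate block and leaving out arrays.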

Additional observations from a re-analysis of the deposited data

Results flagged for a closer look

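By the direct limma test of DMSO aggregates against dispersed DMSO cells, 15 of the named genes differed between the formats. In a fit of only the arrays compared 14 of these genes were no longer called. The values are differences of log2(signal + 1), aggregates minus dispersed. Crym, Aldh1a2, Il33, Cd83 and Minar2 were lower than in fresh cells in aggregates but above dispersed cells, by 1.06, 0.51, 0.91, 1.42 and 1.20. Dhrs3, Rab38, Glrb and Tfpi2 were above dispersed cells by 1.08, 0.97, 1.22 and 2.09, and the dispersed mean of Tfpi2 lay below background. Mss51, H3f3b, Hypk, Itga5, Hspa1a and Klf4 were below dispersed cells, with differences of -2.33, -1.74, -1.53, -2.28, -1.07 and -1.01, and the aggregate mean of Itga5 lay below background. For Itga5 and Hspa1a all aggregate arrays lay below all fresh arrays and all dispersed arrays above them, a pattern that 7 of 18161 genes showed together with a passing direct test, and another 7 showed its reverse with that test passed. No cause of these differences was tested.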

How the results depend on the processing

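Against fresh cells, leaving out 1 array gave 4930 to 5447 called genes (2664 to 3242 higher, 2205 to 2342 lower), and leaving out aggregate replicate 3 and fresh replicate 1 together, a choice made after seeing the data, gave 4680. With the Gapdh 3' to 5' ratio as a covariate 3515 genes were called, 1696 of them higher; every other alternative stayed within 1.5 times the counts given. Against dispersed cells, where 334 and 142 genes were called higher and lower, leaving out 1 array gave 138 to 312 called genes (91 to 204 higher, 47 to 108 lower). There the deposited scaling gave 271 (106 higher), centring on the median 814 (680 higher), the mean of all probe sets 221 higher, array weights 827 (607 higher, 220 lower), an intensity trend with a robust prior 734 (234 lower), the Gapdh ratio 227 (134 higher, 93 lower) and a fit of only the arrays compared 6 (5 higher, 1 lower); the cause was not tested. The shift of all genes against dispersed cells was 0.11 on the log2 scale, 0.02 with the deposited scaling and 0.15 with centring.

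With the replicate number as a block 5751 genes were called against fresh cells, and 319 against dispersed cells, of which 211 were higher, and no named gene lost its call. Deviations from the group mean correlated with r of -0.12, 0.07 and -0.21 between aggregate and fresh arrays of the same number. With 3 arrays per group these values cannot show whether arrays of the same number shared a litter or a batch. Of 15 genes named against dispersed cells 1 kept its direction and its side of the threshold under every alternative. Of 171 genes named against fresh cells 151 kept theirs. The sign turned in 10 of them, none called in any setting where it turned. Without 1 array, log2 fold changes ranged between -0.40 and 0.57 for Osr1, -0.47 and 0.34 for Cdh1, -0.37 and 1.06 for Fcer1a, -0.23 and 0.0048 for Kdr, -1.59 and 0.0082 for Ptprc, and -0.061 and 0.26 for Vldlr. Osr1 also had -0.19 with array weights and -0.026 with beta-actin as a covariate, and Cdh1 had 0.13 with array weights and 0.12 without both low arrays. Ptprc had 0.77 with the mean of probe sets, Eya4 -0.26 and Pecam1 -0.13 with the Gapdh ratio, and Pcna 0.077 and Tpm2 0.032 with centring. Signals below 41.8 limit what can be said of 201 called genes that lay below background in both groups.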
